A study of Mus musculus with 8 samples.

Results

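Resting capillary endothelial cells are the quiescent cells that line the microvessels between cardiac muscle fibres. They were chosen by the UMIs (unique molecular identifiers, one per captured transcript) of 19 genes. A member had a UMI of Pecam1, Kdr or Cdh5, UMIs of at least 2 of the 6 capillary genes Car4, Timp4, Cd300lg, Aqp7, Coro6 and Xdh, and 0 UMIs of Plvap, Ackr1, Gja5, Hey1, Vwf, Apln, Mki67, Top2a, Ptprc and Rgs5, which mark activated, venous, arterial, dividing, blood or mural cells. By this rule 8538 of 28671 cells were members, after 2357 copied cells had been dropped from the 31028 in the table. The MI libraries were deeper than the Healthy libraries. For the main comparisons between groups each cell was therefore first thinned at random to 1000 UMIs, and the rule was applied to the thinned counts. That left 6617 members among 24392 endothelial cells, with 3976 members in the Healthy and 2641 in the MI mice, and 4878 cells were members under both choices.

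The heart runs mainly on fatty acids, and its capillary endothelium is the layer they must cross. Triglyceride-rich particles are held on the vessel wall and hydrolysed there, and the fatty acids are taken up and bound inside the endothelial cell before they reach the muscle. Capillary cells at rest divide little and form a continuous lining with many caveolae, whereas Plvap, a protein of diaphragms in fenestrae and caveolae, and Apln, a peptide ligand of tip cells, mark endothelium that is remodelling or sprouting.

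All mice were adult Pdgfb-iCreERT2-R26R-Brainbow2.1 animals that had received 150 mg/kg tamoxifen, so that Cre driven by the endothelial gene Pdgfb switched on 1 of the Confetti colours. In 4 MI mice a coronary artery was ligated 14 days after tamoxifen and the heart was taken on day 21, which is 7 days after the infarction. The hearts of 4 Healthy mice, the controls without infarction, were taken at the same time after tamoxifen. Cells of the minced ventricles were sorted as CD31+, Confetti+ and Podoplanin-, and 1 library was made per mouse, so the sort had already removed most cells of other kinds and any endothelial cell that had not recombined. Both groups carry the same transgenes and had the same drug. The paper states that its healthy controls had no surgery, so the effect of the operation itself was not tested.

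Library facts that touch the results were as follows. Of the cells of Healthy 228, 2041 (55.6%) had a barcode that was also in Healthy 239, and 316 cells (11.5%) of Healthy 227 had one that was also in Healthy 228. These copies were dropped, after which any pair of mice shared 0 to 40 barcodes and 0 to 3 members. The median number of UMIs in a member was 1789 to 2571.5 in the Healthy and 2807 to 3414 in the MI mice, and 592 Healthy and 0 MI cells had fewer than 1000 UMIs and were left out of the thinning. After thinning, members of the Healthy mice summed to 599000 to 1169000 UMIs and those of the MI mice to 317000 to 1067000 UMIs, the smallest being MI 255 with 317 members. Healthy 227 and MI 244 had UMIs of Y-linked genes and at most 1 of Xist in their members, so that 1 mouse of each group differed from the rest in sex. Each mouse is 1 replicate. Whether the Healthy and MI libraries were prepared together is not given in the sources used here, so preparation and infarction cannot be told apart.

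Among the members at equal depth, 78.4% had a UMI of Cd300lg, a sialomucin-like receptor of capillaries. Aqp7, a channel for water and glycerol, was seen in 53.0% of them. For Timp4, an inhibitor of matrix metalloproteinases, the share was 44.6%, for the membrane-bound carbonic anhydrase Car4 38.0%, for xanthine dehydrogenase Xdh 29.3% and for the coronin Coro6 10.3%. These shares follow from the rule and describe it. As a background for free RNA, 211 Ptprc-positive cells with no UMI of Pecam1, Kdr or Cdh5 were used. Of these cells 0.948% held 2 or more capillary genes, and a single gene was seen in 0.474% (Coro6) to 5.69% (Cd300lg). Among endothelial cells 35.2% held 2 or more. The medians before thinning were 5060 UMIs per cell in the Ptprc-positive and 3182 in the endothelial cells. Cells that had taken up free RNA of the endothelial genes were left out of this background by its definition. It can therefore be too low, and it cannot decide how much free RNA contributed to the capillary genes. In GRCm38 these protein-coding genes lie at chr11:84957786-84966044 (Car4, plus strand), chr6:115241892-115252205 (Timp4, minus), chr11:102041509-102055620 (Cd300lg, plus), chr4:41033074-41048139 (Aqp7, minus), chr11:77462411-77470484 (Coro6, plus) and chr17:73883895-73950196 (Xdh, minus). In the members, the summed level of 7 pericyte genes was at most 18.4 CPM (counts per 1000000) in any Healthy mouse and 10.8 CPM in any MI mouse. Fibroblast genes summed to at most 19.7 and 29.99 CPM and smooth muscle genes to at most 23.1 and 24.3 CPM. Cardiomyocyte genes reached at most 104 and 126 CPM. Erythrocyte and platelet genes were higher, at 428 to 1245 CPM in the Healthy and 596 to 2099 CPM in the MI mice.

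Several genes outside the rule changed by degrees with the number of capillary genes seen. In Healthy cells that held none of the 10 excluded genes, Lpl, the lipase that frees fatty acids in the capillary lumen, went from 344 CPM with 0 capillary genes to 511 with 1, 684 with 2, 759 with 3 and 905 CPM with 4 or more. Rgcc, a regulator of the cell cycle that is abundant in capillaries, went from 745 to 1682 CPM over the same steps, and Cd36, the fatty acid translocase, from 2074 to 4053 CPM. The opposite order was seen for Fbln5, an elastic fibre protein typical of larger vessels, with 164, 81.0, 31.7, 16.5 and 13.3 CPM, and for the adhesion receptor Vcam1 with 126, 51.1, 34.9, 22.0 and 5.71 CPM. Cells just outside the threshold (1 gene, 2135 Healthy cells) and just inside it (2 genes, 2179 Healthy cells) thus lay next to each other for these 5 genes. Gpihbp1, Fabp4 and Tcf15 were likewise higher at each step, from 1715 to 3029, from 14830 to 24168 and from 650.1 to 1263 CPM, whereas the capillary gene Btnl9 had no such order at 385, 429, 449.7, 411 and 341 CPM and the potassium channel Kcna5 had none at 173, 199.5, 229.9, 230.3 and 219 CPM. Every step uses the cells that the rule sorted, so these values are a description. In MI cells Lpl and Fbln5 ran the same way, with Lpl at 265 CPM at 0 genes and 748 CPM at 4 or more, and Fbln5 at 146 and 34.7 CPM, while Vcam1 fell over the first 4 steps from 142 to 38.0 CPM and was at 44.6 CPM with 4 or more genes.

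Against the other endothelial cells of the same mice, members of the Healthy group differed most, among genes outside the rule with at least 50 CPM in either set, in Lpl (724 against 449 CPM), the neurotrophin Ntf3 (90.0 against 50.5 CPM), the antisense gene Gm12002 (354 against 224 CPM), Rgcc (1442 against 945 CPM) and Aqp1, a water channel (2384 against 1571 CPM), each of which was higher in members in 8 of 8 mice. The lowest relative to the other cells were Mgp, an inhibitor of calcification (16.6 against 151 CPM), Fbln5 (22.8 against 148 CPM), Clu (15.1 against 94.9 CPM) and Igfbp4 (13.4 against 77.4 CPM), lower in members in 8 of 8 mice. Both orders rest on ratios with 20 CPM added to each value. No test is given, since the rule had separated the cells.

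The first comparison asks how large a share of the endothelium these cells formed 7 days after infarction. At equal depth members were 50.7%, 42.5%, 37.5% and 40.7% of the endothelial cells in the Healthy mice 227, 228, 239 and 240, and 13.2%, 23.9%, 9.11% and 23.8% in the MI mice 244, 250, 255 and 256. Each MI mouse lay below each Healthy mouse. The means were 42.9 ± 5.64% and 17.5 ± 7.51% (SD, n = 4 each), a difference of −25.4 percentage points with p = 0.0286 in the two-sided exact permutation test, the smallest p that 4 against 4 mice allow. On the deposited counts, with unequal depth, the means were 50.2% and 19.0%. Both parts of the rule contributed. In Healthy mice 52.2 ± 5.61% of endothelial cells had 2 or more capillary genes, against 24.7 ± 9.43% in MI mice. Of those cells 81.9 ± 2.35% and 69.7 ± 4.06% held none of the 10 excluded genes. Since a cell that lowers these genes leaves the set just as a lost cell does, fewer such cells and less capillary RNA per cell cannot be told apart.

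The mean share of endothelial cells with a UMI was lower in MI mice for each capillary gene. These shares at equal depth were 23.1 ± 1.79% and 9.93 ± 4.69% for Car4, 56.8 ± 3.77% and 36.3 ± 6.66% for Cd300lg, and 33.5 ± 0.890% and 19.4 ± 5.77% for Aqp7 in Healthy and MI mice. Coro6 went from 6.94 ± 0.687% to 2.22 ± 1.11% and Xdh from 19.7 ± 5.81% to 9.39 ± 1.73%, whereas the values of Timp4, 25.8 ± 7.38% and 14.8 ± 8.003%, overlapped between the groups. In these 5 genes other than Timp4 the adjusted p was 0.0362 (exact permutation test, Benjamini-Hochberg over 19 shares), and it was 0.136 for Timp4. Among cells with 2 or more capillary genes, Plvap was seen in 0.0920 ± 0.0716% in Healthy and 7.18 ± 3.15% in MI mice, and Apln in 1.58 ± 0.741% and 6.39 ± 2.09%, both with an adjusted p of 0.0362 in the same exact test. Hey1, an arterial transcription factor, excluded the most Healthy cells, with 10.7 ± 3.37% against 9.33 ± 1.25% in MI mice (adjusted p = 0.514, exact permutation test).

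**Figure D1:**
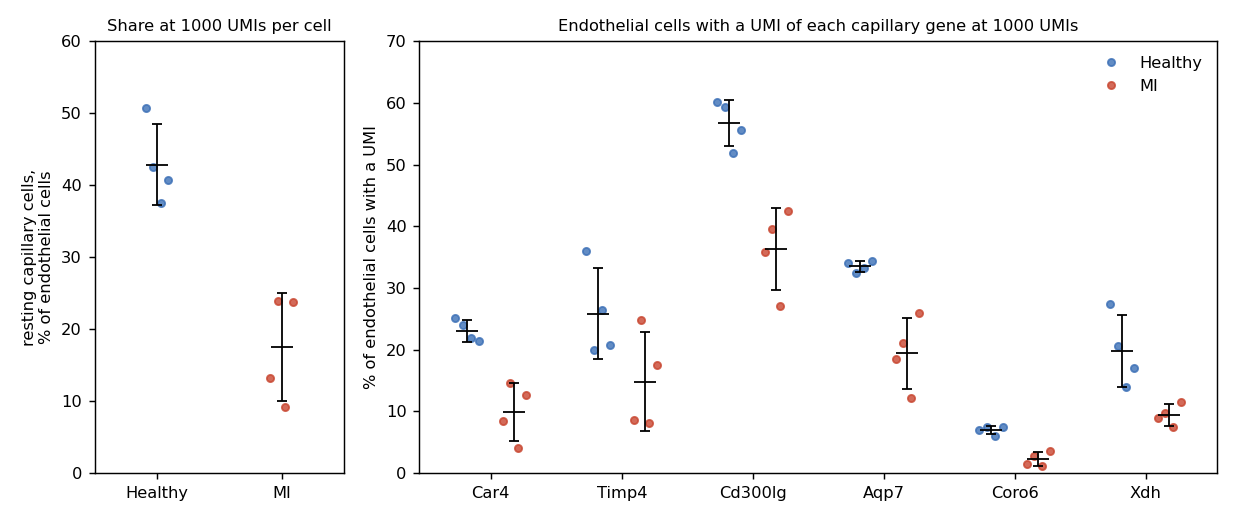
Left, resting capillary cells as a percentage of endothelial cells at 1000 UMIs per cell. Right, percentage of endothelial cells with a UMI of each of the 6 capillary genes. Each point is 1 mouse, the black line is the mean and the bars are 1 SD (n = 4 per group). The 4 MI mice (9.11% to 23.9%) lie below the 4 Healthy mice (37.5% to 50.7%).

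Next, the genes of the rule themselves were compared within the members. The thinned UMIs had chosen the cells, so they could not be used. The UMIs of the same cells that the thinning had left out were used in their place, with 996471 to 3198651 held-out UMIs per mouse. Of the 6 capillary genes, 4 were lower in members of MI mice (edgeR's quasi-likelihood test, adjusted over all genes tested), at a background of 7% of 8891 genes outside the rule called lower and 5.95% called higher in these UMIs. Coro6 read 75.5, 60.8, 89.5 and 89.9 CPM in the Healthy mice and 41, 43.1, 29.1 and 56.2 CPM in the MI mice, without overlap, a log2 fold change of −0.94 ± 0.18 (SE) with an adjusted p of 0.00537 in edgeR. Cd300lg read 1149, 1059, 1007 and 1010.0 CPM in the Healthy mice and 816, 752, 718 and 816 CPM in the MI mice, again without overlap, with a log2 fold change of −0.52 ± 0.10 (SE) and an adjusted p of 0.00577 in edgeR. Both genes were thus lower even in the MI cells that the rule had kept.

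For Car4 the held-out values were 388, 399, 415 and 367 CPM in the Healthy mice and 243, 342, 147 and 278 CPM in the MI mice, with MI 255 lowest and no overlap between the groups (log2 fold change −0.69 ± 0.19 (SE), adjusted p = 0.0296 in edgeR). Xdh, at 376, 229.8, 206 and 207 CPM in the Healthy mice and 155, 154, 182 and 207 CPM in the MI mice, overlapped because MI 256 lay within the range of 3 of the Healthy mice (log2 fold change −0.62 ± 0.18 (SE), adjusted p = 0.0413 in edgeR). Timp4 and Aqp7 did not pass, with log2 fold changes of −0.48 ± 0.26 (SE) and −0.31 ± 0.13 (SE) and adjusted p of 0.239 and 0.137 in edgeR. Timp4 varied most within the Healthy group, from 332 CPM in Healthy 228 to 784 CPM in Healthy 227. The count of 4 did not hold in narrower sets of members. Among members with at least 3 capillary genes, and among members without any macrophage UMI, 0 of the 6 genes passed edgeR, with log2 fold changes between −0.59 and −0.14. The count was 2 without MI 244 or without Healthy 228.

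Of the 3 genes that defined an endothelial cell, Kdr, the main VEGF receptor, fell in members of MI mice. It read 1022, 1064, 878 and 937 CPM in the Healthy mice and 621, 673, 616 and 734 CPM in the MI mice without overlap (log2 fold change −0.63 ± 0.11 (SE), adjusted p = 0.00363 in edgeR), and its call was lost in members without a macrophage UMI (log2 fold change −0.46, adjusted p = 0.0619 in edgeR). The junction proteins Pecam1 and Cdh5 did not pass, at 0.14 ± 0.10 (SE) and −0.11 ± 0.10 (SE) (adjusted p = 0.365 and 0.507 in edgeR).

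The genes that a member had to lack were present in the held-out UMIs of MI members. Plvap read 0, 2.9, 0 and 0 CPM in the Healthy mice and 61.8, 41.9, 81.3 and 36.9 CPM in the MI mice, which is 3 UMIs in all Healthy members together (adjusted p = 6.02e-05 in edgeR). Apln read 11.5, 14.5, 26.6 and 26.2 CPM in the Healthy mice and 93.4, 59.7, 69.2 and 59.7 CPM in the MI mice, a log2 fold change of 1.76 ± 0.24 (SE) with an adjusted p of 0.000612 in edgeR. Both genes were higher in each MI mouse than in each Healthy mouse, and kept their call in members without a macrophage UMI. The arterial connexin Gja5 (4 ± 2.94 CPM in the Healthy mice and 16.5 ± 10.2 CPM in the MI mice) and Vwf, the carrier of clotting factor VIII in larger vessels (14.3 ± 4.75 CPM in the Healthy mice and 30.8 ± 9.62 CPM in the MI mice), were also called higher, with adjusted p of 0.0403 and 0.0326 in edgeR. Without members that held a macrophage UMI Gja5 was too low to test and Vwf was not called (adjusted p = 0.437 in edgeR). Leaving out Healthy 227, Healthy 228, Healthy 240, MI 255 or MI 256 ended both calls, and leaving out MI 250 that of Vwf. Hey1 and Rgs5 did not pass (adjusted p = 0.531 and 0.316 in edgeR). Ackr1, Mki67, Top2a and Ptprc were too rare for the test, with at most 22.5 CPM in any mouse, the highest being Top2a in MI 250. No background level was measured for these genes, and the part of free RNA in these UMIs was not tested. At full depth 10.0% of Healthy and 68.1% of MI members held a macrophage UMI, which is not a comparison at equal depth.

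**Figure D2:**
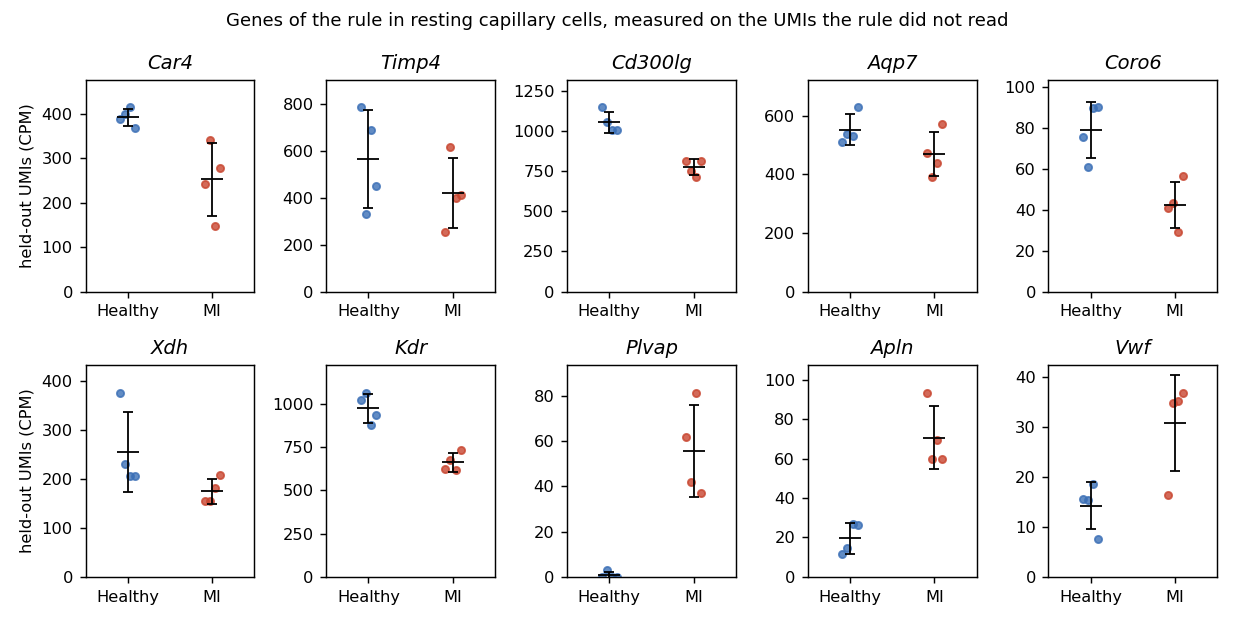
CPM of genes of the rule in the UMIs of the members that the rule did not read, for Healthy and MI mice. Each point is 1 mouse, the line is the mean and the bars are 1 SD (n = 4), and each vertical axis starts at 0. Coro6, Cd300lg, Car4 and Kdr lie lower in each MI mouse than in each Healthy mouse, and Plvap and Apln higher.

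Genes outside the rule were then compared between MI and Healthy members over the thinned counts. Of 7943 such genes tested with edgeR, 295 (3.71%) were called higher and 350 (4.41%) lower in MI mice at an adjusted p under 0.05. The median log2 fold change over all genes was −0.01. MI members lay nearer to the threshold, with 26.6% to 38.2% of them holding 3 or more capillary genes against 39.9% to 50.2% of Healthy members, without overlap. For genes that run with that number, a change per cell and a change in the make-up of the members cannot be told apart. Without members that held a macrophage UMI at full depth, 44 were called higher and 63 lower, of which 43 and 60 were among those called in all members, from fewer cells and fewer tested genes. The counts also rest on single mice, with 121 higher and 119 lower without MI 250, 141 and 122 without MI 244, 158 and 173 without MI 255, and 230 lower without Healthy 228.

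The 12 named genes with the highest fold change included 6 that are at home in endothelium or its matrix. Sox18, a transcription factor of vessel formation, read 103, 90.2, 89 and 79.1 CPM in the Healthy mice and 369, 293, 164 and 342 CPM in the MI mice (log2 fold change 1.66 ± 0.19 (SE), adjusted p = 0.000167 in edgeR). Col15a1, a basement membrane collagen, read 19.9, 35.1, 39.3 and 33.9 CPM in the Healthy mice and 120.4, 91.8, 161 and 94.3 CPM in the MI mice (log2 fold change 1.74 ± 0.22 (SE), adjusted p = 0.000255 in edgeR). Mest, an imprinted gene with a hydrolase fold, read 30.3, 28.4, 68.4 and 81.7 CPM in the Healthy mice and 252, 235, 196 and 117 CPM in the MI mice (log2 fold change 1.81 ± 0.28 (SE), adjusted p = 0.00138 in edgeR). In these 3 genes the groups did not overlap, as the rule for naming required, and the MI mouse nearest to the Healthy mice was MI 255 for Sox18, MI 250 for Col15a1 and MI 256 for Mest.

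Ackr3, a scavenging receptor for the chemokine Cxcl12, rose from 28.5 ± 14.1 to 92.2 ± 34.3 CPM (log2 fold change 1.64 ± 0.31 (SE), adjusted p = 0.005 in edgeR). Marcksl1, an actin-binding protein, rose from 25.5 ± 7.52 to 102 ± 33.6 CPM, and Fbln5 from 22.8 ± 11.4 to 78.9 ± 26.3 CPM, with log2 fold changes of 1.86 and 1.58 and adjusted p of 0.000424 and 0.00515 in edgeR. The actin-capping protein Capg (35.4 ± 8.31 to 142 ± 47.2 CPM) and the galectin Lgals1 (41.9 ± 9.86 to 141 ± 76 CPM) were also among the 12, with adjusted p of 0.000268 and 0.00306 in edgeR. All 8 genes kept their call in members without a macrophage UMI. Fbln5 fell with the number of capillary genes, from 89.1 CPM at 2 to 38.0 CPM at 3 genes in MI cells, and was too low to test in members with at least 3. Capg and Lgals1 are expressed by macrophages as well as by endothelium.

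The other 4 of the 12 belong to immune or interferon programmes. Lyz2, the lysozyme of myeloid cells, read 8.51, 20.03, 45.3 and 18.2 CPM in the Healthy mice and 175, 191, 287 and 127 CPM in the MI mice (adjusted p = 0.000124 in edgeR). Cd74, the invariant chain of MHC class II, read 27.4, 18.4, 44.5 and 5.21 CPM in the Healthy mice and 163, 82.5, 215 and 60.6 CPM in the MI mice (adjusted p = 0.00585 in edgeR). Both were higher in each MI mouse, and Lyz2 is part of the macrophage list. In that list 6 of the 6 tested genes rose (Lyz2, C1qa, C1qb, C1qc, Tyrobp and Fcer1g), beside 3.71% of all genes tested, and Csf1r and Cd68 were too low to test. The summed level of the 8 macrophage genes in members was 19.9 to 116 CPM in the Healthy and 325 to 637 CPM in the MI mice, and at full depth 10.0% of Healthy and 68.1% of MI members held at least 1 such UMI. The other endothelial cells had 29.6 to 363 CPM and 598 to 1614 CPM. In members without such a UMI, the log2 fold change of Cd74 was 1.38 with an adjusted p of 0.17 in edgeR. The part that macrophage RNA had in the other results was not tested beyond that alternative. It read all UMIs of a cell, and a deeper cell is more likely to hold such a UMI. The cells were thus not left out at equal depth, and MI members were deeper.

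**Figure D3:**
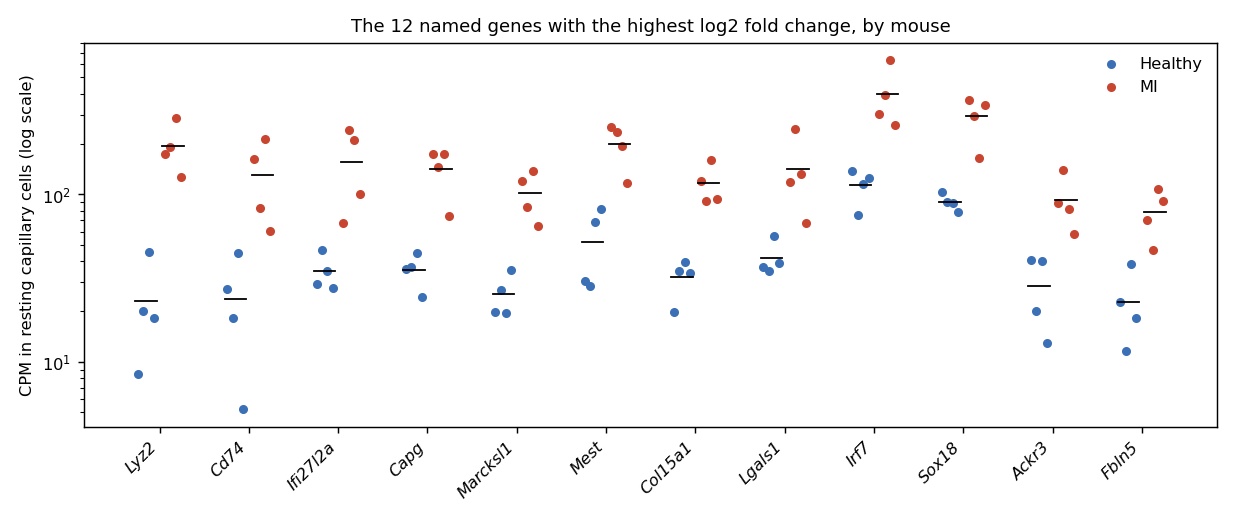
CPM in resting capillary cells, on a log scale, of the 12 named genes with the highest log2 fold change between MI and Healthy mice. Each point is 1 mouse and the short lines are group means. The groups do not overlap in any of the 12, which the rule for naming them required.

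Interferon-induced genes formed the list with the most calls among those of endothelial function. Type I interferon signalling induces antiviral genes through the ISRE, a sequence element that factors of the IRF family bind. Of 19 tested genes of the list, 9 rose in MI members and 0 fell, beside 3.71% called higher and 4.41% lower of all genes tested. Their median log2 fold change was 0.65 against −0.01 over all genes. The list is not independent of these data. Ifit1, Ifit2, Ifit3, Ifit3b, Usp18 and Cxcl10 are the genes that the paper names for an MI-enriched interferon cluster of these same cells. All of these except Ifit1 were called here. Irf7, the factor that amplifies the response, read 137, 75.1, 115 and 125 CPM in the Healthy mice and 303, 394, 634 and 260.1 CPM in the MI mice (log2 fold change 1.69 ± 0.23 (SE), adjusted p = 0.000424 in edgeR). Isg15, a ubiquitin-like modifier, read 452, 285, 272 and 362 CPM in the Healthy mice and 479.6, 541, 738 and 518 CPM in the MI mice (log2 fold change 0.65 ± 0.17 (SE), adjusted p = 0.0252 in edgeR). Healthy 227 had the highest Healthy value in both genes and MI 255 the highest of all mice.

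Ifit3, which binds foreign RNA, was at 144 ± 46.8 CPM in the Healthy mice and 267 ± 78 CPM in the MI mice (log2 fold change 0.79 ± 0.21 (SE), adjusted p = 0.0285 in edgeR), and the groups overlapped because Healthy 227 reached 213 CPM. Oasl2 rose from 89.5 ± 25.4 to 164 ± 29.6 CPM (adjusted p = 0.0174 in edgeR). The other 5 called genes were Ifit3b, Ifit2, Usp18, Oas1a and Cxcl10. Cxcl10, a chemokine that attracts T cells, read 11.4, 5.01, 11.1 and 13 CPM in the Healthy mice and 101, 58.1, 126 and 13.5 CPM in the MI mice, so that MI 256 stood close to the Healthy mice. Ifi27l2a, an interferon-induced gene that is not on the list but among the 12, read 29.3, 46.7, 35.1 and 27.8 CPM in the Healthy mice and 68, 242, 211 and 101 CPM in the MI mice (adjusted p = 0.00115 in edgeR). The count of 9 became 14 with both Healthy 227 and Healthy 228 left out, 4 without MI 255, 5 without MI 250, and 3 both in members with at least 3 capillary genes and in those without a macrophage UMI, where Irf7 kept a log2 fold change of 1.52 with an adjusted p of 0.000557 in edgeR.

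The sequences show where the letters of the element stand in front of called genes. In the 250 bases before the start, the pattern GAAANNGAAA on either strand was found for 978 of 32851 RefSeq promoters (2.98%, GRCm38.p6), and for 9 of the 15 listed interferon genes that had a promoter in the table, 5 of them among 8 called genes. The capitals mark only the match nearest to the start, which reads TTTCNNTTTC where it lies on the other strand, and each sequence runs 5′ to 3′ on the strand of the gene. In the 250 bases Isg15 had 3 matches, Ifit3 and Oas1a 2 each and Cxcl10 1. In the windows of Isg15 and Oas1a a further match begins in the lower case letters and overlaps the marked one.
Isg15, chr4:156200865-156200894, minus strand, match beginning 66 bases before the start: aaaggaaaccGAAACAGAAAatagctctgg
Ifit3, chr19:34583397-34583426, plus strand, match beginning 122 bases before the start: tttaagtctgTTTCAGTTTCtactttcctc
Cxcl10, chr5:92349083-92349112, minus strand, match beginning 213 bases before the start: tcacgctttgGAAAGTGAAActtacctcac
Oas1a, chr5:120907526-120907549, minus strand, match beginning 14 bases before the start: tcgggaaatgGAAACTGAAAatct
The window of Ifit3b held the same 30 bases as that of Ifit3, and those of Irf7, Ifit2 and Oasl2 held no match to these letters. A match is a description of the sequence and no evidence that a factor was bound in these cells.

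Related immune lists are set beside 3.71% called higher and 4.41% lower of all genes tested. Of 10 tested GTPases of the IRG and GBP families, which are induced mainly by interferon gamma, 1 rose. That is near this background, so the count is no result about the list. With 1 mouse left out it was 0 to 1 higher and 0 to 2 lower. The called gene was Irgm1 (62.2 ± 36.2 to 172 ± 49 CPM, adjusted p = 0.0112 in edgeR), and the median log2 fold change of these GTPases was −0.01. Iigp1, the most abundant of them, ranged from 198 to 1119 CPM among Healthy and from 390 to 1031 CPM among MI mice, with Healthy 227 the highest of all. Of 15 antigen presentation genes, the class II genes Cd74, H2-Aa and H2-Ab1 rose (H2-Ab1 from 8.84 ± 5.77 to 52.4 ± 24.5 CPM, adjusted p = 0.00369 in edgeR), and class I genes such as B2m (5705 ± 2024 and 7162 ± 1042 CPM, adjusted p = 0.453 in edgeR) did not pass. With both Healthy 227 and Healthy 228 left out the counts were 6 of the GTPases and 9 of the antigen presentation genes, and without members that held a macrophage UMI both were 0.

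Of 14 tested genes for fatty acid uptake and handling, 1 rose and 1 fell, beside 3.71% and 4.41% of all genes tested, with a median log2 fold change of −0.11. Counts of this size are near that background and are given as a description. Angptl4, an inhibitor of lipoprotein lipase, read 51.1, 43.4, 21.4 and 17.4 CPM in the Healthy mice and 111, 69.4, 110.4 and 93 CPM in the MI mice without overlap (log2 fold change 1.47 ± 0.28 (SE), adjusted p = 0.00585 in edgeR). Pnpla2, the adipose triglyceride lipase, fell from 126 ± 17.5 to 91.9 ± 9.09 CPM (adjusted p = 0.0431 in edgeR), a call that was lost under 12 of the alternatives. The uptake proteins did not pass, with Fabp4, a fatty acid binding protein, at 21384 ± 1983 CPM in the Healthy mice and 20759 ± 1294 CPM in the MI mice and Cd36 at 3401 ± 707 CPM in the Healthy mice and 2994 ± 305 CPM in the MI mice (adjusted p = 0.603 and 0.305 in edgeR). Gpihbp1, which carries lipoprotein lipase to the lumen, stood at 2652 ± 265 CPM in the Healthy mice and 2572 ± 243 CPM in the MI mice and Lpl at 724 ± 185 CPM in the Healthy mice and 557 ± 119 CPM in the MI mice (adjusted p = 0.592 and 0.121 in edgeR). Meox2 and Tcf15, the pair of transcription factors that drives fatty acid transport in heart endothelium, had log2 fold changes of 0.11 ± 0.16 (SE) and −0.35 ± 0.13 (SE) (adjusted p = 0.722 and 0.11 in edgeR).

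Capillary genes outside the rule and receptors had 3 calls between them, all lower, where 4.41% of all genes tested were called lower. Of 13 tested capillary genes 2 fell and 0 rose, with a median log2 fold change of −0.25, and of 11 receptors of VEGF, angiopoietin and TGF-beta 2 fell and 0 rose, with a median of −0.14. Flt1, a decoy receptor for VEGF that is on both lists, read 863, 694, 728 and 751 CPM in the Healthy mice and 493, 615, 571 and 574 CPM in the MI mice without overlap (log2 fold change −0.49 ± 0.11 (SE), adjusted p = 0.0159 in edgeR). The nucleoside transporter Slc28a2 fell from 315 ± 37.6 to 224 ± 29.2 CPM and the BMP9 receptor Acvrl1 from 268 ± 26 to 206 ± 23.9 CPM (adjusted p = 0.0181 and 0.0373 in edgeR). All 3 calls were absent in members with at least 3 capillary genes and in members without a macrophage UMI, where the log2 fold changes of Flt1, Slc28a2 and Acvrl1 were −0.45, −0.39 and −0.42. Without MI 244 both lists had 0 calls, and without MI 250 or without MI 255 each had 1.

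Of 8 tested venous genes 3 rose and 0 fell, beside 3.71% called higher and 4.41% lower of all genes tested, with a median log2 fold change of 0.50. Vcam1 read 27.4, 13.4, 24.8 and 35.6 CPM in the Healthy mice and 54.4, 69.4, 85.2 and 52.6 CPM in the MI mice (log2 fold change 1.21 ± 0.23 (SE), adjusted p = 0.00531 in edgeR). Nr2f2, the transcription factor of venous identity, was at 11.7 ± 1.94 CPM in the Healthy mice and 25.4 ± 10.1 CPM in the MI mice, and Cysltr1, a leukotriene receptor, at 8.98 ± 1.97 CPM in the Healthy mice and 24.7 ± 9.96 CPM in the MI mice (adjusted p = 0.0478 and 0.0195 in edgeR). Vcam1 also ran with the number of capillary genes, at 76.3 CPM with 2 and 38.0 CPM with 3 in MI cells. The list had 0 calls in members with at least 3 capillary genes and in those without a macrophage UMI, and 1 call without MI 250 or without MI 255. Of 12 arterial genes 1 was called higher (Fbln5) and 1 lower (Cxcl12), near the 3.71% and 4.41% of all genes tested, so the count is no result about the list. Cxcl12, the ligand of Cxcr4 and Ackr3, read 1744, 1414, 1678 and 1606 CPM in the Healthy mice and 1155, 762, 1032 and 1193 CPM in the MI mice without overlap (log2 fold change −0.70 ± 0.14 (SE), adjusted p = 0.00648 in edgeR), and its call held in members with at least 3 capillary genes and in those without a macrophage UMI.

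Among 18 tested angiogenic genes 5 rose and 0 fell, beside 3.71% called higher and 4.41% lower of all genes tested, with a median log2 fold change of 0.26. Sparc, a matricellular protein of the basement membrane, read 1856, 1709.5, 2197 and 2158 CPM in the Healthy mice and 4571, 4279, 4640.4 and 2654 CPM in the MI mice (log2 fold change 0.96 ± 0.15 (SE), adjusted p = 0.00147 in edgeR). Cd34, a sialomucin of tip cells and of capillaries, read 595, 533, 754 and 689 CPM in the Healthy mice and 1316, 1130.3, 1107 and 782 CPM in the MI mice (log2 fold change 0.68 ± 0.14 (SE), adjusted p = 0.00938 in edgeR). Lrg1, a secreted glycoprotein that alters TGF-beta signalling in endothelium, read 0.946, 0, 0 and 0 CPM in the Healthy mice and 25.2, 36.6, 56.8 and 39.1 CPM in the MI mice, which is 1 UMI in all Healthy members (adjusted p = 2.16e-05 in edgeR). MI 256 was the lowest MI mouse for Sparc and Cd34 but not for Lrg1. The paper names Lrg1 for an MI-enriched cluster of these same cells. The basement membrane linker Nid2 (24.2 ± 8.84 to 55.4 ± 15.9 CPM) and the actin-binding Cotl1 (13.6 ± 4.73 to 35.8 ± 12.4 CPM) had adjusted p of 0.0233 and 0.0144 in edgeR. The list had 8 calls without Healthy 239, 3 without MI 244 or MI 250, and 2, Sparc and Cd34, without members that held a macrophage UMI.

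The caveolar genes Cav2 and Prkcdbp rose and Tjp1 fell. Of 11 tested genes of junctions and caveolae 2 rose and 1 fell, beside 3.71% called higher and 4.41% lower of all genes tested, with a median log2 fold change of 0.15. The 1 lower call is near that background and is no result about the list. Cav2, the partner of caveolin 1, read 712, 292, 469.6 and 279.8 CPM in the Healthy mice and 1264, 1367, 1290.2 and 1266 CPM in the MI mice (log2 fold change 1.499 ± 0.22 (SE), adjusted p = 0.00101 in edgeR). The 4 MI mice lay within 1264 to 1367 CPM, whereas the Healthy mice spread from 279.8 to 712 CPM. Prkcdbp, which encodes cavin 3, rose from 225 ± 47.2 to 349 ± 58.6 CPM and the tight junction scaffold Tjp1 fell from 147 ± 54.6 to 84.2 ± 15.7 CPM (adjusted p = 0.0318 and 0.0496 in edgeR), and Cav1 did not pass (1915 ± 217 CPM in the Healthy mice and 2474 ± 169.8 CPM in the MI mice, adjusted p = 0.0954 in edgeR). The call of Cav2 held in each alternative. Tjp1 lost its call without Healthy 227, Healthy 228, MI 244, MI 250 or MI 255, Prkcdbp without each of these mice or Healthy 240, and both did in members with at least 3 capillary genes and in those without a macrophage UMI. Their log2 fold changes with any 1 mouse left out stayed between −0.96 and −0.60 for Tjp1 and between 0.46 and 0.68 for Prkcdbp.

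The remaining endothelial lists had calls in both directions, beside 3.71% higher and 4.41% lower over all genes tested. Of 16 glycolysis and hypoxia genes, the glycolytic enzymes Pkm (225 ± 27 to 370.0 ± 78.9 CPM) and Tpi1 (71.3 ± 6.62 to 109.7 ± 20.2 CPM) rose, and the hypoxia-induced genes Ndrg1 (226 ± 18.5 to 175 ± 21.4 CPM) and P4ha1 (78.4 ± 22.2 to 45 ± 7.3 CPM) fell, with adjusted p of 0.0141, 0.0399, 0.0499 and 0.0124 in edgeR. No gene of this list was called higher without MI 244 or without MI 255, or lower without MI 250, and members with at least 3 capillary genes and those without a macrophage UMI had 0 calls in either direction. Of 10 genes of flow and vasoactive function 1 was called in each direction, which is near that background, namely Pi16, a secreted peptidase inhibitor, higher and Thbd, the thrombin receptor that starts protein C activation, lower. Pi16 read 23.7, 40.1, 31.7 and 35.6 CPM in the Healthy mice and 71.8, 106, 145 and 67.4 CPM in the MI mice (log2 fold change 1.49 ± 0.23 (SE), adjusted p = 0.00155 in edgeR), and Thbd fell from 361 ± 74.1 to 241 ± 40.2 CPM (adjusted p = 0.0174 in edgeR). Klf2, the main flow-induced factor, overlapped at 2229.9 ± 668 CPM in the Healthy mice and 1793 ± 351 CPM in the MI mice (adjusted p = 0.237 in edgeR). The call of Pi16 held in each alternative, whereas that of Thbd was lost without MI 244, without MI 255 and in both narrower sets of members.

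Of 11 tested cell cycle genes, with Mki67 and Top2a set apart by the rule, 5 rose and 0 fell, with a median log2 fold change of 0.48. As background for this list and for the CDK inhibitors and cyclins below, 3.71% of all genes tested were called higher and 4.41% lower. H2afz, a histone variant, rose from 263 ± 26.6 to 381 ± 37.1 CPM, the replication helicase subunits Mcm6 and Mcm5 from 35.5 ± 6.94 to 59.4 ± 11.4 and from 7.42 ± 0.958 to 26.1 ± 19.3 CPM, and Cks2 from 8.52 ± 6.06 to 28.2 ± 6.43 CPM (adjusted p = 0.0192, 0.0473, 0.0337 and 0.0128 in edgeR). Birc5 was the fifth, and the paper names it and Cks2 for an MI-enriched proliferation cluster of these same cells. Without MI 250 there were 0 such calls, without MI 244 there were 2, in members with at least 3 capillary genes or without a macrophage UMI there were 0, and with all UMIs of the same members there were 16. With any 1 mouse left out the log2 fold change stayed between 0.44 and 0.53 for H2afz, 0.55 and 0.78 for Mcm6, and 1.36 and 2.25 for Cks2. For Mcm5 it ran from 1.05 to 1.89. Among 10 CDK inhibitors and cyclins, the inhibitor Cdkn1c, which keeps cells out of the cycle, read 840.1, 644, 599 and 605 CPM in the Healthy mice and 330.1, 515, 309 and 438 CPM in the MI mice (log2 fold change −0.80 ± 0.16 (SE), adjusted p = 0.00812 in edgeR), and Cdkn1b fell from 79.1 ± 24.9 to 39.9 ± 8.62 CPM (adjusted p = 0.0156 in edgeR). Cyclin D1, Ccnd1, rose from 238 ± 14 to 388 ± 88.4 CPM (adjusted p = 0.0147 in edgeR), with MI 256 close to the Healthy mice at 256 CPM. Without members that held a macrophage UMI none of these 3 was called, and Cdkn1b and Ccnd1 also lost their calls without MI 244 or without MI 250, Ccnd1 without MI 255 as well. With any 1 mouse left out the log2 fold change stayed between −1.22 and −0.81 for Cdkn1b and between 0.57 and 0.78 for Ccnd1.

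Genes that respond to tissue dissociation overlapped between the groups in their summed level, which was 14575 ± 3042 CPM in Healthy and 14973 ± 1171 CPM in MI members (adjusted p = 0.886, exact permutation test, 12 values). Of 22 tested, Socs3 and Atf3 rose (105 ± 27.3 to 196 ± 55.5 and 40.6 ± 19.1 to 95.1 ± 26.4 CPM, adjusted p = 0.0245 and 0.0207 in edgeR) and the small heat shock protein Hspb1 fell, so that 2 and 1 calls stood beside 3.71% and 4.41% of all genes tested, and the count is no result about the list. Hspb1 read 2010.4, 1598, 1621 and 1326 CPM in the Healthy mice and 699, 1037, 798 and 1047 CPM in the MI mice (log2 fold change −0.93 ± 0.16 (SE), adjusted p = 0.0023 in edgeR), a call that held in each alternative. Socs3 and Atf3 lost theirs without MI 244, MI 250 or MI 255 and in members without a macrophage UMI. Cardiomyocyte, lymphatic and lymphocyte lists had 1 tested gene each and 0 calls, and of 5 tested erythrocyte and platelet genes 0 were called by edgeR.

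**Figure D4:**
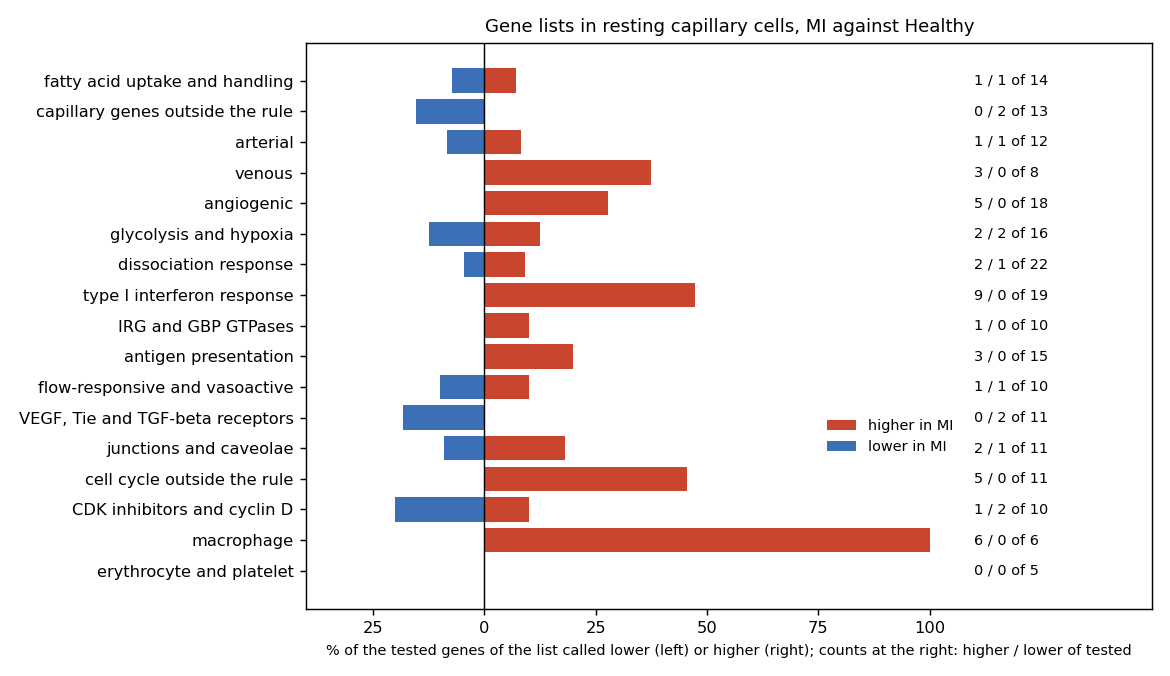
For each gene list with at least 2 tested genes, the percentage of its tested genes called higher (right of 0) or lower (left of 0) in MI members by edgeR at an adjusted p under 0.05. The numbers give the counts, higher / lower of tested. Type I interferon genes have 9 of 19 higher and macrophage genes 6 of 6, against 3.71% of all tested genes called higher. Part of the interferon list was named by the paper from these same cells.

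Most of the lowest fold changes belonged to annotated pseudogenes. Of the 12 named genes with the lowest fold change, 7 are annotated as pseudogenes (Gm10126, Gm10263, Gm10269, Gm17541, Rpl36-ps3, Rps26-ps1 and Rpl13-ps3). Among all 40 tested genes annotated as pseudogenes 24 fell and 0 rose, beside 4.41% called lower and 3.71% higher of all genes tested. Their median log2 fold change was −1.29, and the other endothelial cells had a median of −1.27 for the same genes, with 0 of them differing between the cell sets. Rpl13-ps3 read 439, 661, 349 and 421 CPM in the Healthy mice and 103, 139, 151 and 256 CPM in the MI mice (adjusted p = 0.00162 in edgeR). Reads of such copies can be assigned to a near-identical gene, so the values are uncertain. Of 90 protein-coding ribosomal protein genes 1 rose and 7 fell with a median of −0.03, counts near the shares over all genes and given as a description. The other 5 of the 12 were Gm42726, Gm15013, Gm11808, Wdr89 and Ly6c2. Ly6c2, a near copy of the capillary gene Ly6c1, read 222, 149, 79.6 and 79.9 CPM in the Healthy mice and 25.2, 28.1, 22.1 and 56.6 CPM in the MI mice (log2 fold change −1.97 ± 0.36 (SE), adjusted p = 0.00419 in edgeR). Malat1, a nuclear RNA chosen here after its values were seen, read 55887, 60200.3, 50652 and 52657 CPM in the Healthy mice and 28041, 29444, 31104 and 32179 CPM in the MI mice (log2 fold change −0.93 ± 0.11 (SE), adjusted p = 0.000239 in edgeR). The part of RNA quality or library preparation in these falls was not tested.

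Outside names of the Gm series and pseudogenes, a choice made after the values were seen, the lowest fold changes after Ly6c2 and Wdr89 included the T-box factor Tbx3 (107 ± 24.2 to 46.5 ± 17.2 CPM), the ubiquitin ligase Itch (87.1 ± 7.12 to 37.8 ± 21.9 CPM), the nuclear envelope protein Syne1 (142 ± 4.18 to 65.9 ± 6.34 CPM) and the cofilin phosphatase Ssh2 (211 ± 47 to 99.7 ± 14.7 CPM), with adjusted p of 0.00418, 0.0122, 0.000124 and 0.0012 in edgeR. The groups did not overlap in any of them.

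Finally, the MI effect in members was compared with the MI effect in 16748 other endothelial cells of the same mice, with the mouse as a block. Not all endothelial cells that failed the rule are among these 16748. Of 9187 genes outside the rule, 84 (0.914%) had a difference above 0, that is a log2 fold change that was higher in members, and 22 (0.239%) a difference below 0. The other endothelial cells are cells that failed the rule, whose make-up differed between groups, and members had to hold 2 or more capillary genes in both groups. A change per cell and a change of make-up cannot be told apart in either part of the difference, and for genes that run with the capillary genes of the rule the rule itself bears on their level in members. Among the 84 genes, 46 fell in the other endothelial cells by a test of their own, 4 rose there, and 22 were called in members. Choosing genes by a difference above 0 favours those that fell in the other cells, so these counts are a description.

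Fbln5 rose in members and did not pass in the other cells, and with at least 3 capillary genes the difference was not called (0.66, adjusted p = 0.691 in edgeR). Its means were 22.8 ± 11.4 and 78.9 ± 26.3 CPM in members and 148 ± 59.7 and 197 ± 17.9 CPM in the other cells of Healthy and MI mice. The difference of log2 fold changes of 1.23 ± 0.21 (SE) is a description, since Fbln5 is an arterial gene and fell with the number of capillary genes. Cav2 rose in both, with log2 fold changes of 1.499 and 1.01 and a difference of 0.47 ± 0.08 (SE) (adjusted p = 0.000153 in edgeR). Crispld1, a secreted protein of the CAP family, had a log2 fold change of 0.44 in members and −1.41 in the other cells, with a difference of 1.90 ± 0.34 (SE) (adjusted p = 0.000227 in edgeR).

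Several capillary and lipid genes run with the genes that sorted the cells, so the values of these lists in the 2 sets are a description with no test. Cd36 had log2 fold changes of −0.25 in members and −0.62 in the other cells. For Tcf15 they were −0.35 and −0.93 and for Mgll, the monoglyceride lipase, −0.30 and −0.86. Cdkn1c fell in both sets, by log2 fold changes of −0.80 and −1.48 in members and the other cells. This too is a description, since members had to lack the cell cycle genes Mki67 and Top2a. Cxcl12, an arterial gene, fell by −0.70 and −1.26, which is given as a description. The 6 of 13 capillary genes outside the rule, 4 of 14 genes of fatty acid handling and 5 of 12 arterial genes that were called different are likewise no result, since the rule sorted the cells by capillary and arterial genes. Beside 0.914% and 0.239% of all genes tested, 6 of 18 angiogenic and 4 of 11 cell cycle genes and 4 of 10 CDK inhibitors and cyclins differed between the cell sets. Members also had to lack Apln, Plvap, Mki67 and Top2a, so angiogenic and cell cycle genes were sorted in part as well. Of the 22 dissociation genes 11 differed, among them Hspa1a (0.11 and −0.56, adjusted p = 1.08e-09 in edgeR) and Jun (0.24 and −0.26, adjusted p = 3.15e-06 in edgeR).

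Of the 22 genes with a difference below 0, 15 rose in the other endothelial cells, which this choice of genes favours, so the count is a description. As members had to lack Mki67, Top2a, Apln and Plvap, the values of cell cycle and angiogenic genes here are a description. Stmn1, which destabilises microtubules in dividing and migrating cells, had log2 fold changes of 0.39 in members and 1.17 elsewhere (difference −0.77 ± 0.14 (SE)). For Aplnr, the receptor of apelin, they were 0.15 and 0.52, and for the basement membrane collagen Col4a1 0.41 and 0.66. Apoe, a lipid carrier that macrophages also make, rose in both, by 0.95 and 1.77 (difference −0.74 ± 0.10 (SE), adjusted p = 2.53e-06 in edgeR). Without members that held a macrophage UMI, 19 genes had a difference above and 3 below 0, and without Healthy 239 there were 49 above 0.

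**Figure D5:**
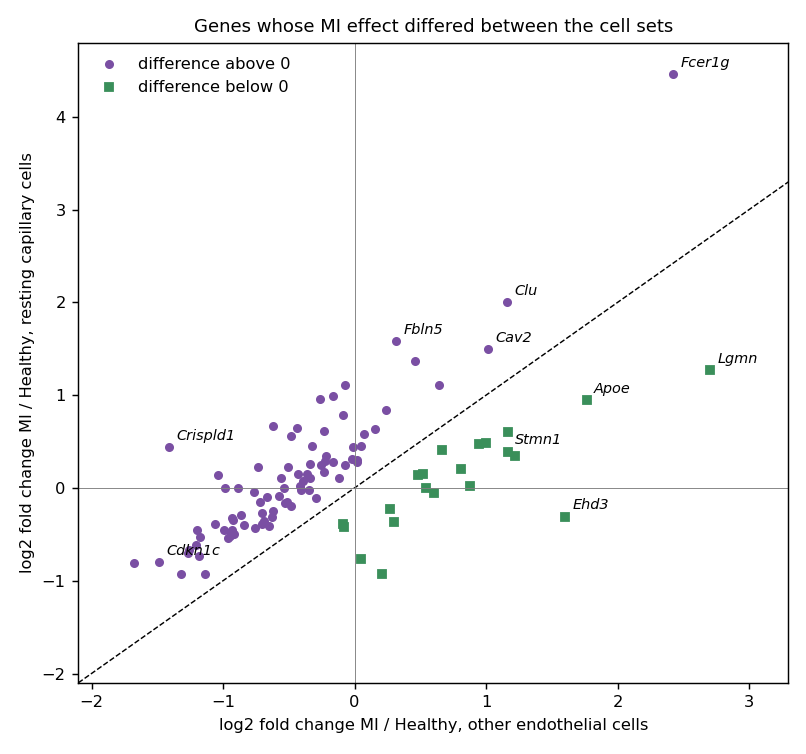
Log2 fold change between MI and Healthy mice in resting capillary cells (vertical) against the other endothelial cells of the same mice (horizontal), for genes outside the rule whose effects differed between the cell sets at an adjusted p under 0.05 and that were tested in both. Circles have a difference above 0 and squares below 0, and the dashed line marks equal effects. Most circles lie left of 0, where the log2 fold change in the other endothelial cells was below 0. Choosing genes by a difference above 0 favours that side.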

How the data were processed

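Single-cell RNA-seq counts of 8 hearts were analysed. The authors made the counts of UMIs per gene and cell with Cell Ranger against mm10 and filtered cells in R 3.5.2 with Seurat 2.3, and the deposited counts of 16791 genes in 31028 cells are not normalized. Reads of near-identical genes may be assigned to either. Per the deposited values, no cell had fewer than 403 genes or more than 19.963% mitochondrial UMIs.

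Copied barcodes were dropped, each cell was thinned to 1000 UMIs, and the rule was applied to the thinned counts, which were then summed per mouse. No doublet caller was run, and an alternative left out the 5% of cells with the most UMIs. Sums were tested with edgeR 4.0.16 (R 4.3.3, TMM scaling, filterByExpr, quasi-likelihood test) and p-values were adjusted by Benjamini and Hochberg over all genes tested, the threshold being 0.05. Other values were compared with two-sided exact permutation tests over mice in SciPy 1.17.1. CPM are thinned counts, or for genes of the rule held-out counts, per 1000000 such counts of a mouse's members. On simulated data of 7952 genes for the comparison of members, 90% of genes changed 4-fold and 71% of genes changed 2-fold were called, with 3 false calls. The simulation gave every gene the same dispersion between mice, so these rates need not hold for genes that vary more.

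Named genes were, in each direction, the 12 largest log2 fold changes of genes outside the rule with an adjusted p under 0.05, a mean of at least 50 CPM and groups that did not overlap (without Xist, Tsix, Y-linked, immunoglobulin and haemoglobin genes), together with the most abundant called genes, or where none was called the most abundant genes, of each of 23 lists, of whose 280 genes 279 were in the table. Other list genes were named after their values were seen. The members and lists were chosen with earlier results of these data known. Alternatives were another draw, depth, filter, scaling, tool (DESeq2 1.42.0), choice of members and each mouse left out. Leaving out members with a macrophage UMI, and both Healthy 227 and Healthy 228, was chosen after seeing the data.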

Additional observations from a re-analysis of the deposited data

Results flagged for a closer look

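Among 112 groups of 4 mice, 9 had 1 mouse set far apart from the other 3, where chance gives about 1 in 20. The median number of genes per member was 664 in MI 256 and 683 to 685 in the other MI mice. Cytosolic ribosomal protein genes took 12.9% of member UMIs in Healthy 228 and 11.6% to 11.8% in the other Healthy mice. In the same mouse Gm42726 read 321 CPM against 51.3 to 90.7 CPM, and Gm10263 read 329 CPM against 141 to 169 CPM, in members of the other Healthy mice.

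In the held-out UMIs, Healthy 227 stood apart with 841 CPM of Pecam1 against 758 to 761 CPM, 376 CPM of Xdh against 206 to 229.8 CPM, and 2.02 CPM of Mki67 against 0 CPM in the other Healthy mice. Held-out Plvap was 2.90 CPM in Healthy 228 and 0 CPM in the other Healthy mice, which is a matter of 3 UMIs. Held-out Vwf was 16.4 CPM in MI 244 and 34.7 to 36.9 CPM in the other MI mice.

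The MI effect differed between members and the other endothelial cells, by edgeR's test of the difference, for 31 of the genes named in the text. The difference of log2 fold changes was above 0 for Cav2 (0.47), Hspb1 (0.38) and the macrophage gene Fcer1g (2.13). The rule sorted the cells in part by arterial and cell cycle genes. The difference is therefore a description for Cxcl12 (0.56), Fbln5 (1.23), Ccnd1 (0.44), Cdkn1c (0.65) and H2afz (−0.47). For the haemoglobin genes Hba-a1 and Hbb-bs it was 1.23 and 1.37, values that turned to −0.84 and −0.0152 in members with at least 3 capillary genes, and for Hba-a2 it was 1.096. The difference was above 0 for the capillary and lipid genes Btnl9 (0.56), Cd36 (0.37), Fabp4 (0.18), Ly6c1 (0.28), Mgll (0.55) and Tcf15 (0.55). For Hspa1a (0.66) and Jun (0.51) of the dissociation list it was above 0 as well. These values are a description, since several of the genes run with those that sorted the cells. So are Clu (0.99), Mgp (0.94) and Gm12002 (0.51), which were among the genes that set Healthy members most apart from the other cells. Also above 0 were Cav1 (0.27), Crispld1 (1.90), Ifit2 (0.58), Malat1 (0.21) and Pard3b (1.22). It was below 0 for Apoe (−0.74) and, as a description of genes that the rule sorted in part, for Aplnr (−0.38), Col4a1 (−0.27) and Stmn1 (−0.77).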

How the results depend on the processing

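The lower share of members in MI mice kept its sign in all 17 alternatives, between −31.2 and −13.2 percentage points. With 1 mouse left out it was −27.5 to −22.6 with p = 0.0571, the smallest that the exact permutation test then allows. Of genes called higher and lower in members (295 and 350) there were 449 and 544 with no filter, 185 and 210 by DESeq2 (926 adjusted p were NA), 800 and 815 with all UMIs of the same members, 76 and 88 with at least 3 capillary genes, 864 and 936 by the rule on the deposited counts, 44 and 63 without members with a macrophage UMI, and 121 to 340 and 119 to 386 with 1 mouse left out. The difference from other endothelial cells was above 0 for 84 and below 0 for 22 genes, and these became 51 and 8 by DESeq2 (7850 adjusted p were NA), 296 and 73 with all UMIs, 52 and 10 with at least 3 capillary genes, 142 and 43 at 1500 UMIs, 248 and 90 on the deposited counts, 19 and 3 without members with a macrophage UMI, 49 to 91 and 15 to 32 with 1 mouse left out, and 12 below 0 with both Healthy 227 and Healthy 228 left out. The 4 capillary genes lower in held-out UMIs became 0 with at least 3 capillary genes, 0 without members with a macrophage UMI, 2 with both Healthy 227 and Healthy 228 left out, and 2 to 5 with 1 mouse left out. Differences that reversed were Hba-a2 (−0.88 with at least 3 capillary genes, −0.0548 on the deposited counts), Hba-a1 (−0.84 and −0.11), Hbb-bs (−0.0152 and −0.0132) and Pard3b (−0.31 at 1500 UMIs), and the cause was not tested. For named genes 0 values reversed after a call and 213 lost their call among 1753 that were recomputed. Depth limits genes of few UMIs, such as Ptprc with 2 held-out UMIs in all Healthy and 21 in all MI members. No paired analysis was possible because each mouse number occurs in 1 group only.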
